A study of Mus musculus with 4 samples.

Results

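Among 103288 hypersensitive regions obtained by merging the 4 deposited lists of this series, 4240 were listed after Dex and in untreated cells and were missing from both lists of cells that had received E2. They made up 4.11% of all merged regions, 8.60% of those listed after Dex and 6.49% of those listed in untreated cells. A merged region joins the regions of any list that overlap or touch, and the 4240 members are those with a region from the Dex list and the untreated list and none from the E2 or the Dex+E2 list. Members were chosen by these listings, which rest on the authors' region scores in each library, so the presence or absence of a member in a list is no finding, and its densities after Dex and in untreated cells are given as a description without a test. Absence from a list means only that the site did not reach the listing threshold there, and open chromatin of lesser degree may remain. The members are thus sites under the threshold of each library with E2, not sites shown to be closed.

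The cells were 7438 cells, a mouse mammary line that makes a GFP-tagged glucocorticoid receptor (GFP-GR) and a Cherry-tagged estrogen receptor (Cherry-ER) from a tetracycline-regulated promoter. All 4 groups carried both transgenes and were plated in charcoal-dextran serum 48 h before the experiment, and tetracycline was withdrawn 24 h before hormone, so the receptors were also induced in the untreated group. Cells received for 30 min 100 nM dexamethasone (Dex, a synthetic glucocorticoid that binds GR), 100 nM estradiol (E2, a ligand of ER), 100 nM of each (Dex+E2) or no hormone (untreated). Each group had 1 library, so no spread between replicates was available and no effect of a hormone was tested.

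DNase I cuts DNA most readily where nucleosomes are displaced, and hypersensitive sites mark promoters, enhancers and other regulatory elements. GR and ER are ligand-activated transcription factors of the nuclear receptor family. After binding its ligand, each binds its own response element or reaches DNA through other factors, and remodelers recruited there can open or close chromatin. Much binding of GR takes place at sites that are already open before hormone, and activated ER can also act at such sites. In a bulk digest, a lower density at a site may come from fewer cells with that site open or from less cutting per cell, and these cannot be told apart. Positions are given in mm9 as in the deposited lists. The genes around the members and their sequences were not analysed here.

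The libraries differed as a whole in ways that touch the members. The Dex list had 51251 regions, the E2 list 35496, the Dex+E2 list 50061 and the untreated list 65879, so that the members were missing from the shortest list and from a second list that was shorter than both lists holding them. Over the 20687 merged regions in all 4 lists, the median of the maximum tag density was 14.7 after Dex, 10.2 after E2, 15.4 after Dex+E2 and 30.1 in untreated cells. Densities are given on the deposited scale unless they are called median-scaled, which means divided by these 4 medians. The total to which the authors scaled each library is not stated in the labels or the file headers.

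Few members were strong sites. Their maximum density after Dex ranged from 2.20 to 18.1 with a median of 6.61, and in untreated cells from 2.04 to 43.9 with a median of 8.67. One tag was worth 0.245 after Dex and 0.255 in untreated cells, so the median member rested on 27 tags at its summit after Dex and on 34 in untreated cells. The middle 90% of members spanned 18 to 41 tags after Dex and 17 to 66 in untreated cells. The median member stood at the 39.8th percentile of the Dex list and at the 48.6th percentile of the untreated list. Only 14 members (0.330%) exceeded the upper quartile of the Dex list, 13.5, and 100 (2.36%) exceeded that of the untreated list, 19.1. At a density of 20 there were 0 members after Dex and 75 (1.77%, 1.41 to 2.21) in untreated cells. Intervals on shares are Wilson 95% intervals and those on densities exact Poisson 95% intervals of the tags at the summit, and both cover counting error only.

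Regions missing only after E2 were stronger than the members. These 6024 regions, listed after Dex, after Dex+E2 and in untreated cells, had medians of 8.08 after Dex and 12.0 in untreated cells, and 10.2% of them reached a density of 20 in untreated cells. The 833 regions missing only after Dex+E2 had medians of 6.86 after Dex and 10.7 in untreated cells. The 20687 regions of all 4 lists stood far above the members, and 71.8% of them reached 20 in untreated cells. The 26861 regions of the untreated list alone were weaker than the members, with an untreated median of 5.61, as were the 14781 regions of the Dex list alone, with a median of 5.39 after Dex. The members therefore lay between sites seen in 1 library and sites seen in 3. This was not particular to them. Regions listed only in untreated cells and after Dex+E2 had an untreated median of 8.42, and those listed only in untreated cells and after E2 had 7.65.

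How often a site listed after Dex and in untreated cells went missing from both E2 libraries depended on its density. Of all 31784 such regions, 4240 were members, a background of 13.3%, while 6024 (19.0%) were missing only after E2, 833 (2.62%) only after Dex+E2, and 20687 (65.1%) were in all lists. At an untreated density above 5 and up to 7.5, 1231 of 2544 regions (48.4%, 46.5 to 50.3) were members. From 10 to 15 the share was 20.9% (1126 of 5394), and from 15 to 20 it was 6.72% (287 of 4271). From 20 to 30 there were 72 members among 5211 regions (1.38%, 1.10 to 1.74), and from 30 to 50 there were 3 among 5153. None of the 5246 regions above 50 was a member.

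**Figure D1:**
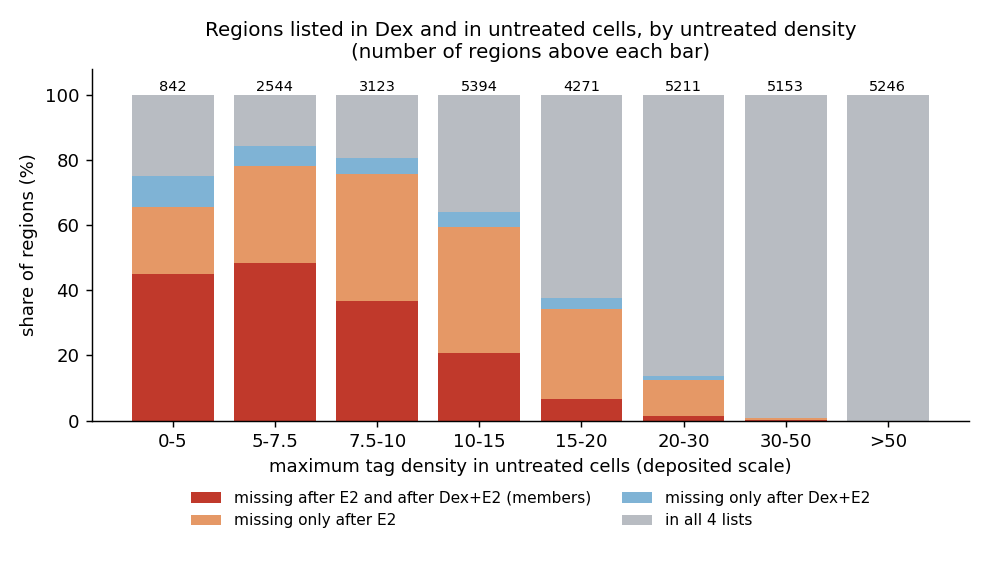
Share of the 31784 regions listed after Dex and in untreated cells (vertical axis, percent) that were missing from both lists with E2, from 1 of them or from none, by maximum tag density in untreated cells (horizontal axis, deposited scale). Members make up 48.4% of regions at densities of 5 to 7.5 and 1.38% at 20 to 30, and above 50 every region was in all 4 lists.

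The same dependence appeared when regions were ordered by their Dex density. Members made up 34.0% of the 7090 regions with a Dex density above 5 and up to 7.5, 17.5% of the 6157 regions from 7.5 to 10 and 3.24% of the 6672 regions from 10 to 15. Between 15 and 20 there were 7 members among 3344 regions (0.209%). At Dex densities above 20 no region was a member. In that range 208 regions were missing only after E2, all of them with a listing after Dex+E2.

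Absence from the other pairs of lists gives a measure of how far the pattern goes with list length and density. Of the 32130 regions listed after Dex+E2 and in untreated cells, 3673 (11.4%, 11.1 to 11.8) were missing after Dex and after E2. Of the 24486 regions listed after E2 and in untreated cells, 1220 (4.98%, 4.72 to 5.26) were missing from both lists with Dex. Members were thus 3.48 times as many as this mirror class. At untreated densities from 10 to 15 the shares were 20.9% for members, 16.3% for the class missing after Dex and after E2, and 8.30% for the class missing from both lists with Dex. At 15 to 20 they were 6.72%, 5.39% and 1.90% in the same order. When each list was reduced to its 35496 densest regions, a density of 10 to 15 gave 26.7% (25.5 to 28.0), 17.98% (16.9 to 19.1) and 17.1% (15.8 to 18.5), and the members numbered 2390, against 1608 and 972 in the other classes. This kept the whole E2 list, down to a density of 2.20. It cut the Dex list at 6.122, the Dex+E2 list at 6.125 and the untreated list at 8.417. A region missing in this setting may therefore be one that the authors listed below the cut. Members stayed the most frequent class at equal list lengths, the intervals of the other classes overlapped at that density, and the ratio of members to the mirror class was 2.46. These classes share the untreated library, and with 1 library per group the differences between their counts were not tested.

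A density carried over from another library gives a measure of how close the members lay to the low end of the E2 lists. At the regions in all 4 lists, the median ratio of E2 to untreated density was 0.339. Multiplied by it, the untreated densities of the members had a median of 2.94, and 4003 of 4240 (94.4%) fell under the 25th percentile of the E2 list, 5.60. The same held for 77.9% of the regions missing only after E2 and for 19.0% of those in all lists. It also held for 81.3% of the 833 regions missing only after Dex+E2, which were listed after E2. Their carried-over median was 3.63 and their measured E2 median 5.999. A low carried-over density was thus commoner in the classes missing after E2 than in the regions of all lists, but it was not confined to them. For Dex+E2 the median ratio to untreated was 0.516, and 75.6% of members fell under the 25th percentile of that list, 5.90. Carried over from Dex instead, with median ratios of 0.715 for E2 and 1.04 for Dex+E2, 78.2% of members fell under the 25th percentile of the E2 list and 28.6% under that of the Dex+E2 list. From Dex, 70.6% of the regions missing only after Dex+E2 and 48.8% of those missing only after E2 also fell under the 25th percentile of the E2 list. The share of members near the low end was high for E2 from either starting library, and for Dex+E2 it depended on the library that was carried over. What part the general shift of densities had in the absence of members from these lists was not tested.

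**Figure D2:**
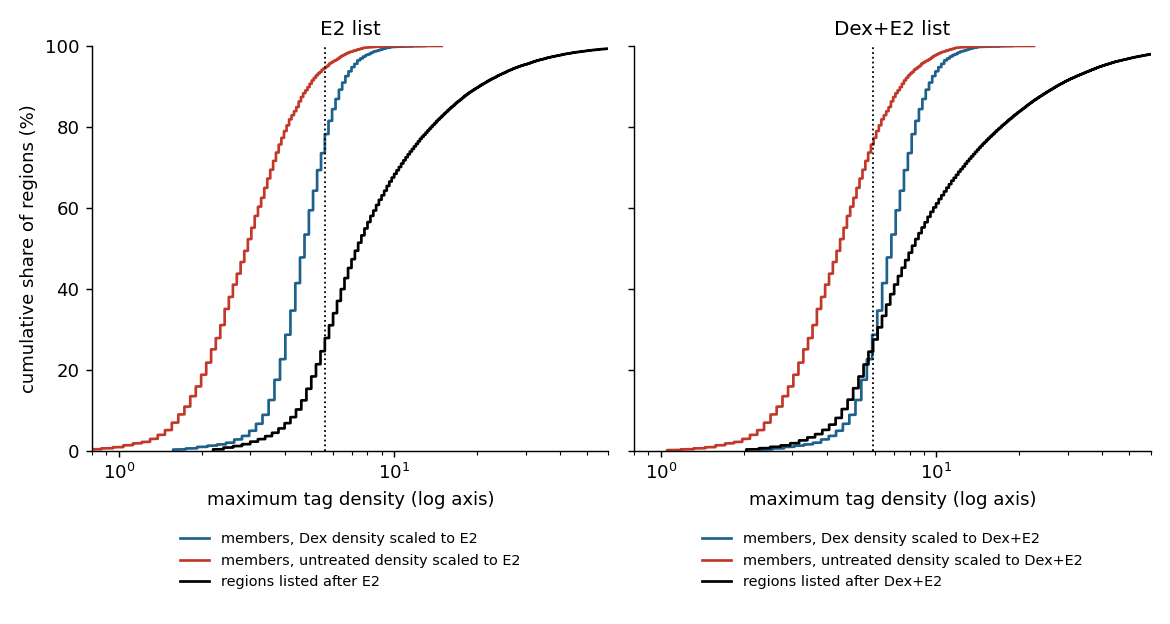
Cumulative share of regions (vertical axis, percent) by maximum tag density (horizontal axis, log scale) for the members' Dex and untreated densities, each multiplied by the median ratio at regions in all 4 lists, and for the regions listed after E2 (left) and after Dex+E2 (right). The dotted line is the 25th percentile of each list, and 94.4% of the untreated densities carried over to E2 lie left of it.

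A minority of members did not lie at the low end by this measure. Their carried-over densities reached the 25th percentile of both lists with E2 in 237 members when taken from untreated cells, in 925 when taken from Dex, and in 162 (3.82%, 3.28 to 4.44) by both routes. These 162 had median densities of 9.80 after Dex and 18.9 in untreated cells. By both routes 17 members (0.401%) reached the median of both lists, and their own medians were 12.2 after Dex and 23.5 in untreated cells. This split was chosen after the values were seen. It was made for members only, so no share over other regions stands beside these counts.

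Density after Dex relative to untreated cells depended on the scale at the members. As deposited, the median log2 ratio of Dex to untreated was −0.36 at members, −0.88 at all 31784 regions listed in both and −1.04 at regions in all 4 lists. Median-scaled, it was 0.67 at members, against 0.16 at all regions listed in both, so the sign at the members reversed with the scaling. Median-scaled values were higher after Dex in 92.4% of members and in 61.9% of all regions listed in both. Past 2-fold, 975 members (23.0%, 21.7 to 24.3) were higher after Dex on the median scale, where 11.8% of all regions listed in both were. On the same scale 0 members were at least 2-fold lower, where the background was 0.406%. With the average in place of the maximum density 18 members were, a count for which no background was computed. As deposited, 3 members were at least 2-fold higher, against a background of 1.1%, and 378 (8.92%) were at least 2-fold lower, against a background of 40.8%. Being listed after Dex set a floor under the Dex density of a member, which limits how low its ratio could be. Only 1.77% of members reached an untreated density of 20, against 71.8% of regions in all 4 lists. On either scale, the scarcity of lower ratios among members was thus partly fixed by how they were chosen.

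Set beside other regions of similar density, the members' median-scaled ratio was lower or higher depending on which library's density was matched and on the regions compared. At untreated densities above 5 and up to 7.5, the median log2 ratio was 0.98 at members and 1.04 at the other regions listed in both. At 7.5 to 10 it was 0.65 at members and 0.73 at the others, and at 10 to 15 it was 0.35 and 0.39. At 20 to 30 it was −0.21 at the 72 members and −0.02 at the 5139 others. The share past 2-fold higher was also lower at members, with 43.9% against 55.5% at 5 to 7.5, 12.4% against 29.0% at 7.5 to 10, and 1.15% (0.676 to 1.97) against 11.8% (10.9 to 12.8) at 10 to 15. In every range of untreated density up to 50 the members' median ratio was below that of the pooled other regions listed in both. The same held against regions missing only after E2 and against those in all 4 lists. Against regions missing only after Dex+E2 it held in no range above 10. At 10 to 15 the median log2 ratio was 0.35 at members and 0.25 at that class. At 15 to 20 it was 0.06 and −0.07 in the same order, and at 20 to 30 it was −0.21 and −0.35. By Dex density instead, the members' median was above that of the regions in all 4 lists in every range that held members. It was not above every other class, since at Dex densities of 15 to 20 the 7 members had 1.10 and regions missing only after E2 had 1.31. At Dex densities above 5 and up to 7.5 the median log2 ratio was 0.64 at members, 0.37 at regions missing only after E2, 0.39 at those missing only after Dex+E2 and 0.00 at those in all 4 lists. At 7.5 to 10 it was 0.69 at members, 0.42 at regions missing only after E2, 0.31 at those missing only after Dex+E2 and −0.01 at those in all 4 lists. Each matching fixes 1 side of the ratio, and the members were chosen from both libraries, so these values carry no test and no direction was particular to the members.

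**Figure D3:**
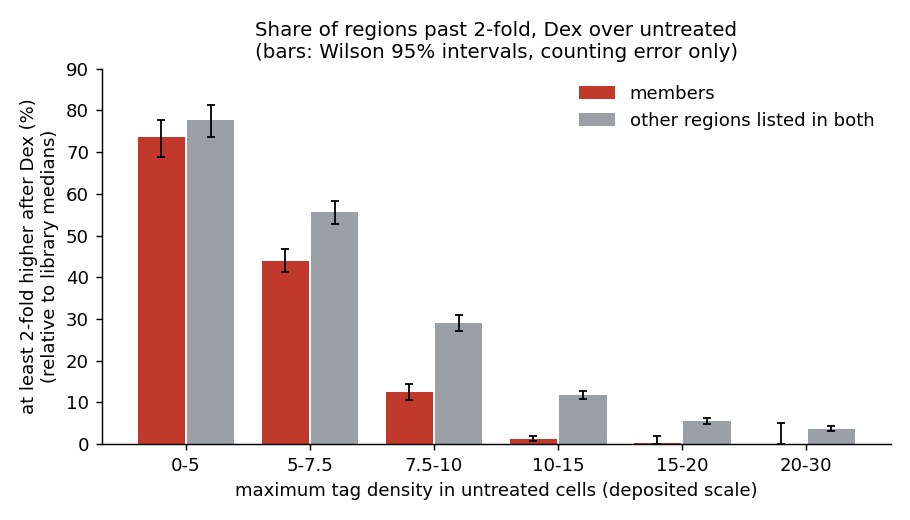
Share of regions with a median-scaled density at least 2-fold higher after Dex than in untreated cells (vertical axis, percent), for members (left bar of each pair) and other regions listed in both (right bar), by maximum tag density in untreated cells (horizontal axis). Error bars are Wilson 95% intervals, and at densities of 10 to 15 the share is 1.15% at members and 11.8% at the others.

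Members were also split by the Dex to untreated ratio, which by itself makes a lower untreated density likelier in the class of high ratio. The 975 members at least 2-fold higher after Dex on the median scale had medians of 6.61 after Dex and 5.87 in untreated cells, and the other 3265 had 6.61 after Dex and 9.69 in untreated cells. Their Dex densities thus shared 1 median and their untreated densities did not. The 324 members with a median-scaled log2 ratio under 0 had medians of 6.37 after Dex and 15.4 in untreated cells. Deposited density was higher after Dex than in untreated cells in 891 members (21.0%), compared with 10.99% of all regions listed in both.

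**Figure D4:**
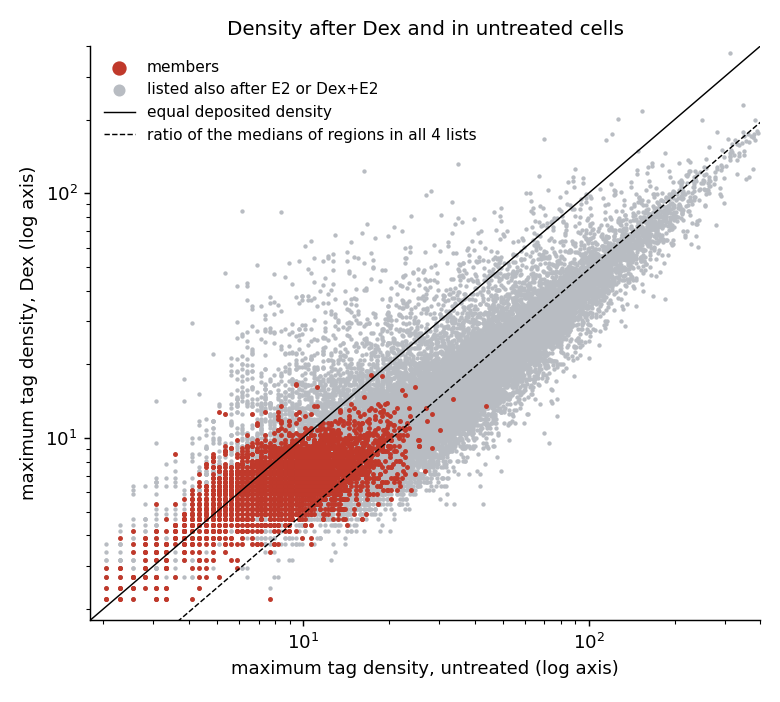
Maximum tag density after Dex (vertical axis, log scale) and in untreated cells (horizontal axis, log scale) for the 4240 members and for the other regions listed in both, 1 point per merged region. The axes end at a density of 400, beyond which lie 20 regions, and members lie at or under 18.1 after Dex, mostly between the line of equal density and the dashed line through the library medians.

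The ratio of average to maximum density at the members was similar in both libraries, while the width of their regions differed. The average density of a region divided by its maximum had a median of 0.240 after Dex and 0.239 in untreated cells at members, and 0.228 after Dex and 0.227 in untreated cells at regions in all 4 lists. Members had a median width of 617.5 bp, between the 396 bp of regions of the untreated list alone and the 749 bp of those missing only after E2, while regions in all 4 lists had 1009 bp. This is the width of the merged region, which can only grow as more lists are joined, so that order is partly fixed by merging. Regions listed only in untreated cells and after Dex+E2 had 589 bp, and those listed only in untreated cells and after E2 had 568 bp. In 4141 members each list had a single region, and 99 members joined more than 1 region of a list. Among the 4141, the median width was 433 bp for the Dex region and 580 bp for the untreated region, and the untreated region was the wider in 3247 (78.4%). Their bases in common made up a median of 60.5% of the joined stretch, and the centres were a median of 67 bp apart. In 222 of them (5.36%) less than 25% of the stretch was common to both regions, so that these members rest on regions that overlap little.

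The members reached down to the authors' listing threshold, which differed between libraries. The lowest listed Z score was 4.95 in untreated cells, 5.18 after Dex, 5.15 after Dex+E2 and 5.26 after E2. Some members were thus listed in untreated cells at scores under the lowest of the E2 list. The 10 members with the lowest Z score after Dex had scores of 5.178 to 5.18, with Dex densities of 2.69 to 6.37 and untreated densities of 3.06 to 13.3. The 10 with the lowest Z score in untreated cells had scores of 4.95 to 4.97, with Dex densities of 4.41 to 8.08 and untreated densities of 4.08 to 8.42. At a different border, that of the lists with E2, the 10 regions of lowest E2 score among those missing only after Dex+E2 had E2 scores of 5.26 to 5.28, with Dex densities of 5.14 to 11.5 and untreated densities of 5.10 to 18.4. The 10 regions of lowest Dex+E2 score among those missing only after E2 had scores of 5.15 to 5.16, with Dex densities of 4.16 to 12.0 and untreated densities of 4.08 to 12.0.

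Members were found on all 20 chromosomes of the lists. Their share of the regions listed after Dex and in untreated cells ran from 11% on chromosome 8 (192 of 1745) to 15.3% on chromosome X (120 of 783). Their share of all merged regions ran instead from 3.13% on chromosome X to 4.98% on chromosome 19. Most lay apart from regions listed with E2, at a median gap of 6389 bp to the nearest region of the E2 or Dex+E2 list. Within 1000 bp of such a region lay 850 members (20.05%, 18.9 to 21.3), against 10.6% (10.2 to 10.98) of the regions of the untreated list alone. Within 150 bp there were 98 members (2.31%). To the E2 list alone, 13.1% of members and 9.41% of the regions missing only after E2 lay within 1000 bp. Measured to merged regions instead, which can extend beyond their E2 part, 930 members had 1 listed with E2 within 1000 bp. In 519 of these (55.8%) the neighbour was a region of all 4 lists. These 930 members had medians of 7.10 after Dex and 8.93 in untreated cells, against 6.37 and 8.42 in the same order for the 3310 farther away.

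The strongest member in untreated cells was chr15:78636893-78638116, 1223 bp wide, with a density of 13.5 (10.1 to 17.5) after Dex and 43.9 (37.6 to 50.9) in untreated cells. Its nearest region listed with E2 was 2332 bp away. The next was chr11:68858757-68859754, with 14.5 after Dex and 33.4 in untreated cells, which was also among the 10 members densest after Dex. At chr2:4260055-4261269 the density was 10.8 (7.83 to 14.5) after Dex and 30.1 (24.9 to 36.0) in untreated cells. All of these were lower after Dex on the deposited scale, beyond their counting intervals, and had median-scaled log2 ratios of −0.67, −0.18 and −0.45. The other 7 of the 10 densest untreated members had Dex densities between 7.35 and 13.2 and untreated densities between 25.5 and 28.3. Among them, chr1:74295137-74296039 had 12.5 after Dex and 28.3 in untreated cells, and chr4:89152426-89153311 had 9.06 after Dex and the same 28.3 in untreated cells. Their median-scaled log2 ratios were −0.15 and −0.61, so that sites of 1 untreated density had 51 and 37 tags after Dex, with overlapping intervals of 9.30 to 16.4 and 6.38 to 12.5. At chr6:113083180-113083966, with 13.2 after Dex and 27.0 in untreated cells, the median-scaled log2 ratio was 0.00.

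After Dex, chr10:80214996-80215536 was the densest member, with 18.1 (14.2 to 22.8) after Dex and 17.3 (13.5 to 22.0) in untreated cells. It lay 124 bp from the merged region chr10:80213825-80214872, which was in all 4 lists with 58.5 after Dex, 34.2 after E2, 57.4 after Dex+E2 and 86.5 in untreated cells. At chr16:30981204-30982136 the density was 17.9 after Dex and 18.9 in untreated cells, and 543 bp away lay chr16:30980349-30980661, listed after E2 alone at 7.20. At chr2:139930505-139931338 it was 16.6 (12.9 to 21.1) after Dex and 9.44 (6.64 to 13.0) in untreated cells, and 40 bp away lay chr2:139929610-139930465, in all 4 lists with 9.80 after Dex, 6.80 after E2, 9.53 after Dex+E2 and 20.2 in untreated cells. The 3 densest members after Dex therefore each had a region listed with E2 within 1000 bp. None of the other members named by density, ratio or width did. At chr8:73275943-73276808 the density was 16.4 after Dex and 9.44 in untreated cells, and at chr12:60307654-60308516 it was 16.2 after Dex and 11.2 in untreated cells. The remaining 4 of the 10 densest after Dex, chr6:4406536-4408098, chr6:146582121-146583734, chr16:4595283-4596356 and chr3:89070181-89070854, had Dex densities of 14.7 to 16.2 and untreated densities of 16.3 to 24.7.

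Ratios were ranked among the 1527 members with a density of at least 10 in either library. The highest Dex to untreated ratio was at chr18:66567224-66568031, with 12.7 (9.51 to 16.7) after Dex and 5.10 (3.12 to 7.88) in untreated cells, or 5.11-fold on the median scale and 2.50-fold as deposited. At chrX:10271514-10272493 the density was 12.5 after Dex and 5.36 in untreated cells, 4.78-fold on the median scale and 2.33-fold as deposited. At chr19:27334798-27335698 it was 12.5 after Dex and 6.63 in untreated cells, 3.86-fold on the median scale and 1.88-fold as deposited. Its counting intervals on the deposited scale, 9.30 to 16.4 and 4.33 to 9.72, overlap. The next were chr2:139930505-139931338 and chr8:73275943-73276808, at 3.61-fold and 3.56-fold on the median scale and 1.765-fold and 1.739-fold as deposited. Their counting intervals on the deposited scale also overlapped between libraries. These overlaps concern the deposited ratios only and do not apply to the median-scaled ones. These 5 reached a density of 10 after Dex only, so the ranking itself placed their Dex values above their untreated values.

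At the other end, chr17:80235128-80235955 had 6.12 (3.96 to 9.04) after Dex and 23.97 (19.4 to 29.3) in untreated cells, a log2 ratio of −0.93 on the median scale and −1.97 as deposited. At chr9:57275607-57276442 the density was 7.35 after Dex and 26.8 in untreated cells, and at chr9:22290502-22291097 it was 5.63 after Dex and 20.4 in untreated cells. Both had a median-scaled log2 ratio between −0.83 and −0.82. The remaining ones were chr11:70642293-70643212, with 6.12 after Dex and 21.4 in untreated cells, and chr3:105628297-105629365, with 7.10 after Dex and 24.7 in untreated cells. These 5 reached a density of 10 in untreated cells only, so their lower Dex values follow from the ranking. Their Z scores were 5.21 to 7.29 after Dex and 25.3 to 31.6 in untreated cells.

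**Figure D5:**
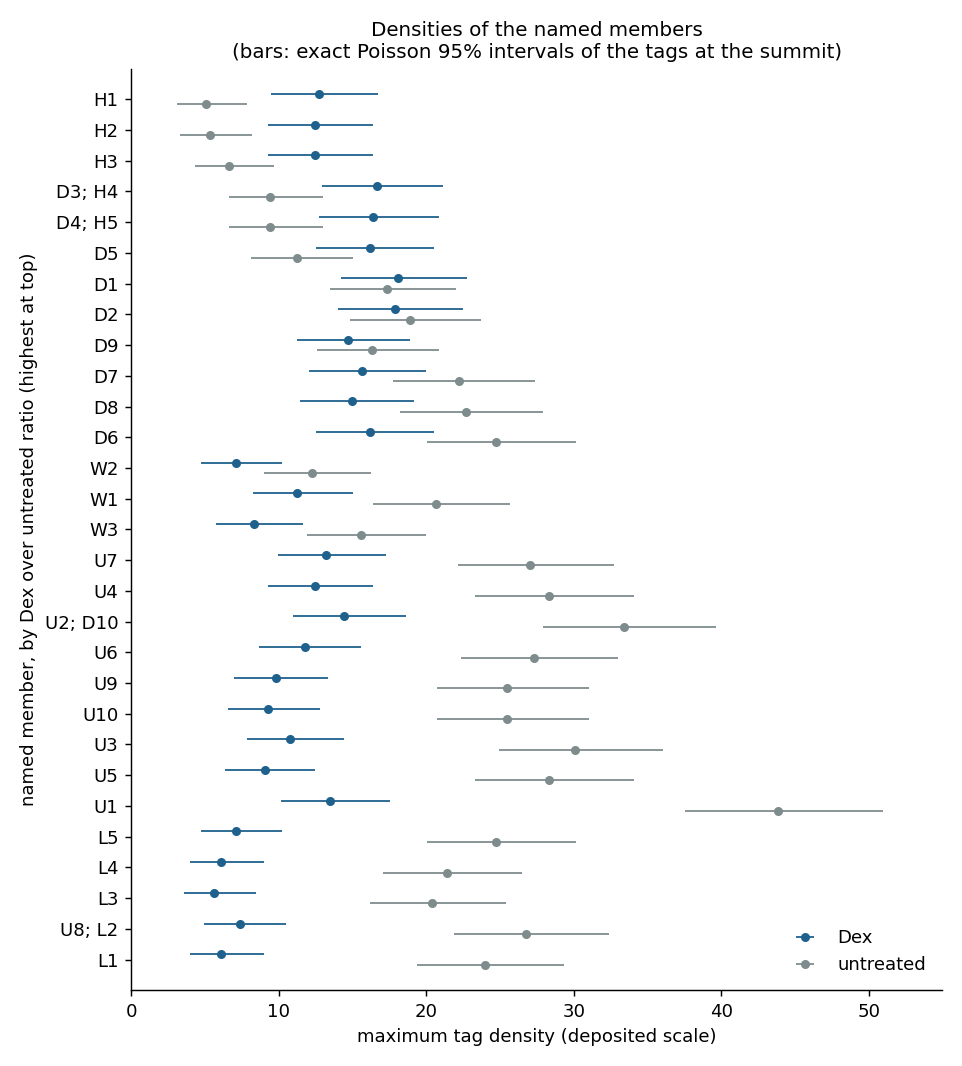
Maximum tag density (horizontal axis, deposited scale) after Dex and in untreated cells for each named member (vertical axis), ordered by Dex to untreated ratio, with exact Poisson 95% intervals of the tags at the summit. U, D, H, L and W stand for rank by untreated density, Dex density, highest ratio, lowest ratio and width. The order by ratio was fixed by the ranking, and the 10 densest members after Dex lie between 14.5 and 18.1 after Dex.

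The 3 widest merged regions among the members had densities above the members' medians in both libraries. At chr17:44870799-44873744 (2945 bp) the density was 11.3 after Dex and 20.7 in untreated cells. The region chr10:43721781-43724629 (2848 bp) had 7.10 after Dex, where it consisted of 2 listed regions, and 12.2 in untreated cells, where it was 1 region. At chr1:93696111-93698688 (2577 bp) the density was 8.33 after Dex and 15.6 in untreated cells. Their median-scaled log2 ratios, 0.16, 0.25 and 0.13, were all below the median of the members.

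Of the 4240 members, 2347 (55.4%) had no other member within 100000 bp on either side. Windows of 100000 bp were begun at each member, and the fullest stretch was chr7:116762151-116851310, with 5 members among 12 merged regions, of which 4 were in all lists. Its members had densities of 6.12 to 10.0 after Dex and 7.91 to 16.8 in untreated cells. No other window held 5, and 16 overlapping or separate windows held 4. The separate ones with the highest summed untreated density are given. At chr1:137748851-137823048 there were 4 members among 9 merged regions at 7.59 to 8.82 after Dex and 9.18 to 19.4 in untreated cells. At chr15:50714705-50759377 there were 4 members among 10 merged regions at 6.86 to 9.55 after Dex and 11.2 to 13.3 in untreated cells. In the chromosome 15 stretch the pair chr15:50721213-50722530 and chr15:50722890-50723859 had nearly equal values, with 9.55 and 9.31 after Dex and 13.3 in untreated cells at both. All 3 stretches also held regions of all 4 lists.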

How the data were processed

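DNase-seq of 7438 cells was deposited as 1 list of hypersensitive regions per library, called in each library separately, with 1 library per group taken from the treatment in the labels. Per the submitters' processing notes the build is mm9 and CASAVA 1.8 was used. Which aligner and region caller were used is not given in the sources used here. The deposited density columns, maximum and average per the file headers, are signal values, scaled by the authors library by library. All maximum densities (100%) fell on multiples of a fixed step, to a tolerance of 0.02 tags, and that step was taken as 1 tag. The deposited Z score of a region served only to describe distance from the threshold, and the deposited p-value was not used.

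Regions were merged with Python 3.11.15, NumPy 2.4.6, pandas 2.3.3 and SciPy 1.17.1, and figures drawn with Matplotlib 3.10.9. Where a merged region held several regions of a library, the highest value was used. Merging and ratios were tested on simulated lists with planted patterns. Named members are the 10 densest in each of the Dex and untreated libraries, the 5 highest and 5 lowest ratios among members with a density of at least 10 in either, the 3 widest, and the 3 stretches of 100000 bp with most members, ties going to the highest summed untreated density (a tie rule set with the data in view). The members, lists and rules were chosen with earlier results of these data known. Alternatives covered joining, list length, threshold, distance, chromosome X, density measure, scaling and fold limit. Total reads per library were unknown here. One tag was worth 0.200 after E2 and 0.227 after Dex+E2. If all libraries were scaled to 1 common total, which is not stated, depth relative to untreated cells would be 1.042 for Dex. It would be 1.275 for E2 and 1.124 for Dex+E2. Motifs and gene starts were not analysed, since no genome or annotation of build mm9 was used here.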

Additional observations from a re-analysis of the deposited data

How the results depend on the processing

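The number of members stayed within 1.5 times 4240 when overlap of 1 bp was required, when regions within 150 bp were joined, with a common lowest Z score, with the denser 50% of each list, without chromosome X and without members within 1000 bp of a region listed with E2, at 2884 to 4242. With lists of equal length it was 2390. Of the original 4240 members, 1858 (43.8%) overlapped a member at equal list lengths, which is 77.7% of those 2390, and 825 (19.5%) overlapped one of the 2884 members of the denser 50% of the lists. The share among regions listed after Dex and in untreated cells, 13.3%, became 13.0% with joining within 150 bp, 9.24% with equal lengths, 12.8% with a common Z score and 10.7% without members near a region listed with E2. In this last setting only members were left out and the total was kept, so a lower share was fixed in advance. At untreated densities of 10 to 15 it was 20.9%, and 26.7% at equal lengths, an alternative chosen after seeing the data. The ratio of 3.48 to the class missing from both lists with Dex became 7.92 with the denser 50% of each list.

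The median log2 ratio of Dex to untreated at members, 0.67, was reversed to −0.36 as deposited. It was 0.43 with equal lengths, 0.43 with the denser 50%, 0.62 with a common Z score, 0.65 without chromosome X and 0.60 with average density. Members at least 2-fold higher after Dex, 975, became 3 as deposited, and 2438 at a 1.5-fold limit. Members at least 2-fold lower, 0, became 18 with average density, 378 as deposited and 25 at 1.5-fold. For average density and for the 1.5-fold limit, the share over all regions listed in both was not computed. The counts in those settings therefore have no background and say nothing particular about the members. Apart from what the scaling and the shorter lists change by construction, the cause was not tested. The alternatives for motifs and gene starts were not run. No paired analysis was possible because each group had 1 library. Depth limits single members, whose median summit held 27 tags after Dex and 34 in untreated cells.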
